A study of Mus musculus with 64 samples.

Results

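The transcripts of microglia from the frontal cortex at night were compared between 2 pairs of conditions, Soci and Cogn on one side and Ctr0 and Ctr1 on the other. The 16 libraries labelled frontal cortex and night were taken from the 64 of the series, with 4 libraries per condition, so that 8 Soci and Cogn libraries were set against 8 control libraries. All animals were adult male C57BL/6 mice (C57BL6/N in the methods of the study) with no transgene or deletion named. The words Soci, Cogn, Ctr0 and Ctr1 are used as they stand, since the labels do not say what was done to the animals, and Ctr0 and Ctr1 are called controls from their names alone. The animals were kept under a reversed light cycle, and the study describes its microglia as taken in the light and in the dark phase, the latter being the night of the labels.

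Cells were sorted from mechanically dissociated tissue with magnetic beads against CD11b, a surface protein that microglia share with other myeloid cells, and total RNA was sequenced after depletion of ribosomal RNA. The deposited values were counts of reads per gene, and levels are given as CPM, counts brought to the same library total after TMM scaling, which corrects for a few very high genes. Total counts ran from 11.4 to 26.3 M per library, and 15964 genes had enough counts to be tested. The 22 homeostatic microglia genes, such as P2ry12 and Tmem119, were counted in all 16 libraries. Of the 15 lymphocyte markers, 12 had no count in at least 4 libraries. Ighm, Cd79b and Cd4 were counted in all 16, at medians of 134, 6.43 and 2.19 CPM. Markers of border macrophages, astrocytes, neurons and vessels were present throughout. None of 16 measures of depth, of ribosomal and mitochondrial reads and of other cell types passed a test between the groups of 8 (exact permutation test, 2-sided, smallest adjusted p = 0.836). The border macrophage sum was mostly Stab1 and Maf (medians of 825 and 383 CPM) and the lymphocyte sum mostly Ighm. These 2 sums therefore say little about the lower markers in them. Soci libraries 2 and 4 had the lowest shares of counts in Gm23935, a locus with ribosomal RNA reads, at 0.113% and 0.801% against 1.59% to 6.50% elsewhere, and values without them are given where they change a call. The labels do not say that replicates came from separate animals, so the p-values measure the spread between these libraries, which may in part be technical.

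The circadian clock of a cell is a feedback loop in which the activators BMAL1 (gene Arntl) and CLOCK or NPAS2 bind E-boxes and switch on their own repressors, the PER and CRY proteins, and the nuclear receptors REV-ERBα (Nr1d1) and REV-ERBβ (Nr1d2), which in turn repress Arntl. The same activators drive Dbp, whose product acts with TEF and HLF on D-boxes in output genes and is opposed by NFIL3. Microglia also carry a resting level of interferon-stimulated genes, which encode antiviral GTPases, nucleic acid sensors and the machinery that presents antigen on MHC molecules.

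Across all genes, 4 differed between Soci and Cogn and the controls, and all 4 were lower in Soci and Cogn (edgeR quasi-likelihood test, Benjamini-Hochberg adjusted p under 0.05), which is 0.0251% of the genes tested. These were the clock genes Nr1d2 and Dbp and the interferon-responsive genes Iigp1 and Nlrc5. At an unadjusted p under 0.05, 446 genes were higher (2.79%) and 548 were lower (3.43%). The groups of 8 did not overlap for 5 genes that were lower (0.0313%) and 3 that were higher (0.0188%), the former being the 4 called genes and the immunoglobulin segment Ighj2. Leaving out any 1 of the 16 libraries gave 2 to 5 genes, with Nr1d2 and Dbp among them each time. Leaving out all 4 libraries of 1 replicate number gave 0 to 2 genes, with none without number 2 or number 4.

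The promoters of the 4 clock genes with the lowest p-values are shown because these genes were lower together. The sequences are those of RefSeq on GRCm38.p6, from 250 bases before to 50 bases after the transcript start and in the direction of transcription. Capitals mark an E-box (CACGTG) or a D-box (TTATGTAA). Nr1d2 lies at chr14:18239057-18239356 on the minus strand, Dbp at chr7:45704997-45705296 on the plus strand, the first Tef start at chr15:81802423-81802722 and the second at chr15:81811164-81811463 on the plus strand, and Per3 at chr4:151044616-151044915 on the minus strand.
Nr1d2: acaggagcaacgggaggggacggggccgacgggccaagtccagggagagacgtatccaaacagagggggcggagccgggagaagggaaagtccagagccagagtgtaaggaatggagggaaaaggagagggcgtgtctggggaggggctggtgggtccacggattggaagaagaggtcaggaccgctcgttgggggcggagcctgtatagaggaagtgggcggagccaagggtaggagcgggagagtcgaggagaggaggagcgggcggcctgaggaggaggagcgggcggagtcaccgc
Dbp: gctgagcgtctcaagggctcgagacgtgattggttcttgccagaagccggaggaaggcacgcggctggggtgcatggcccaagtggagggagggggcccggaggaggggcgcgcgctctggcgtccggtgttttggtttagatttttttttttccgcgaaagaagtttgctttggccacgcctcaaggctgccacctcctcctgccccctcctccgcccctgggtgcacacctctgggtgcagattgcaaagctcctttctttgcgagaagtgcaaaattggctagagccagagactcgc
Tef, first start: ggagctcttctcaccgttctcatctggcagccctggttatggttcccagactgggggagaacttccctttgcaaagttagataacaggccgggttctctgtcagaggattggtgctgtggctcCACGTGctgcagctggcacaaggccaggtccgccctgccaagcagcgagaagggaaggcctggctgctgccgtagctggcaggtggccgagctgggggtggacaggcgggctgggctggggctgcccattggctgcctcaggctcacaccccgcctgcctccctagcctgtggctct
Tef, second start: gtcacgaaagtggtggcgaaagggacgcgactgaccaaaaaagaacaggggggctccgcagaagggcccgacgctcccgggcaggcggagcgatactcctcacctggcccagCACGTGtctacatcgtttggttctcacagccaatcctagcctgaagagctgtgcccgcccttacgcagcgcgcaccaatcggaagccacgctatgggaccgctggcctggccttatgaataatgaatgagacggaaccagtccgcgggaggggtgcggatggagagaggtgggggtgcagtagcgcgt
Per3: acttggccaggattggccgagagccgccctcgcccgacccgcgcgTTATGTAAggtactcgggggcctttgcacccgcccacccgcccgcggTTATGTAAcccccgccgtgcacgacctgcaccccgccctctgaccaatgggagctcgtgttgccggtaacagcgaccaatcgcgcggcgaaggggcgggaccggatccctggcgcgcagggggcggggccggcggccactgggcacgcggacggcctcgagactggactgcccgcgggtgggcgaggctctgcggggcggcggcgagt
Both strands were searched, and E-box and D-box letters do not overlap. The Tef starts each held 1 E-box, at 127 and 138 bases before the start (-127 and -138), and the Per3 promoter held 2 D-boxes, at -205 and -158. Neither motif, nor the AP-1 site TGACTCA, was present in these windows of Nr1d2 and Dbp. Of 32851 mouse promoters of this length, 7.15% held the E-box, 5.2% the AP-1 site and 0.938% the D-box. Of 13 core clock genes with a promoter in the table, 4 held an E-box (Per1, Cry1, Bhlhe41 and Ciart), 1 a D-box and 0 an AP-1 site. Counted by gene in the same way, 8.09% of 27025 genes held the E-box, 1.11% the D-box and 5.95% the AP-1 site. The D-box was searched after the sequences had been seen.

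Nr1d2 (ENSMUSG00000021775, chromosome 14, 18204054 to 18239127, minus strand) encodes the repressor REV-ERBβ. Its level was 32.2, 42.0, 43.6 and 36.9 CPM in the Soci libraries and 35.8, 37.7, 36.2 and 36.2 CPM in the Cogn libraries. In the controls it was 48.6, 56.6, 53.1 and 48.7 CPM in Ctr0 and 69.8, 66.0, 57.3 and 60.8 CPM in Ctr1. Each of the 8 control libraries was above each of the 8 others, and the Cogn libraries lay close together. Nr1d2 fell by 0.61 ± 0.07 on the log2 scale (SE, edgeR adjusted p = 0.00168). Taken apart, the log2 difference was -0.57 ± 0.08 for Soci (SE, edgeR adjusted p = 0.0358) and -0.65 ± 0.08 for Cogn (SE, edgeR adjusted p = 0.0146). Ctr1 was above Ctr0 in every library, with a log2 difference of Ctr0 against Ctr1 of -0.29 ± 0.09 that did not pass adjustment over all genes (edgeR, adjusted p = 0.684).

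Dbp (ENSMUSG00000059824, chromosome 7, 45705088 to 45710203, plus strand), the output factor driven by the clock, stood at 7.79, 7.61, 9.27 and 4.83 CPM in Soci and at 8.48, 8.01, 6.99 and 7.51 CPM in Cogn. The Ctr0 libraries had 13.3, 16.5, 12.02 and 15.8 CPM and the Ctr1 libraries 20.6, 21.9, 13.4 and 15.998 CPM. The groups of 8 did not overlap, and Soci replicate 4 was the lowest of all. Dbp fell by 1.09 ± 0.13 on the log2 scale (SE, edgeR adjusted p = 0.00275). The log2 difference was -1.13 ± 0.17 in Soci (SE, edgeR adjusted p = 0.0358) and -1.05 ± 0.17 in Cogn, which alone did not pass (SE, edgeR adjusted p = 0.0882). Of 9 other settings, 5 called Dbp in Cogn, among them DESeq2 (adjusted p = 6.49e-06). In Soci 2 genes were called (0.0125%), Dbp and Nr1d2, and in Cogn 1 gene (0.00626%), Nr1d2. At an unadjusted p under 0.05, 3.21% of genes were higher and 4.9% lower in Soci, and 2.32% and 2.07% in Cogn. All 4 Soci libraries lay below all 8 controls for 50 genes (0.313%) and above them for 45 (0.282%). For all 4 Cogn libraries these counts were 45 (0.282%) and 24 (0.15%). Nr1d2, Dbp, Iigp1 and Nlrc5 were below in both. This follows from the groups of 8 not overlapping, since Soci and Cogn were set against the same controls. Both Soci calls were kept in 3 of the 16 fits without 1 library, and Nr1d2 kept its call in Cogn in 12 of 16. Of 9 other settings, 6 called Dbp and 3 called Nr1d2 in Soci, and 7 called Nr1d2 in Cogn. The fit of all 32 cortical libraries did not call Nr1d2 in Soci or Cogn (edgeR, adjusted p = 0.0963 and 0.0588), nor did library totals alone (edgeR, adjusted p = 0.324 and 0.0556). Without Soci libraries 2 and 4, neither Soci call was kept (edgeR, adjusted p = 0.856 for Dbp and 0.730 for Nr1d2). Dbp was then called in Cogn (edgeR, adjusted p = 0.0148).

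**Figure D1:**
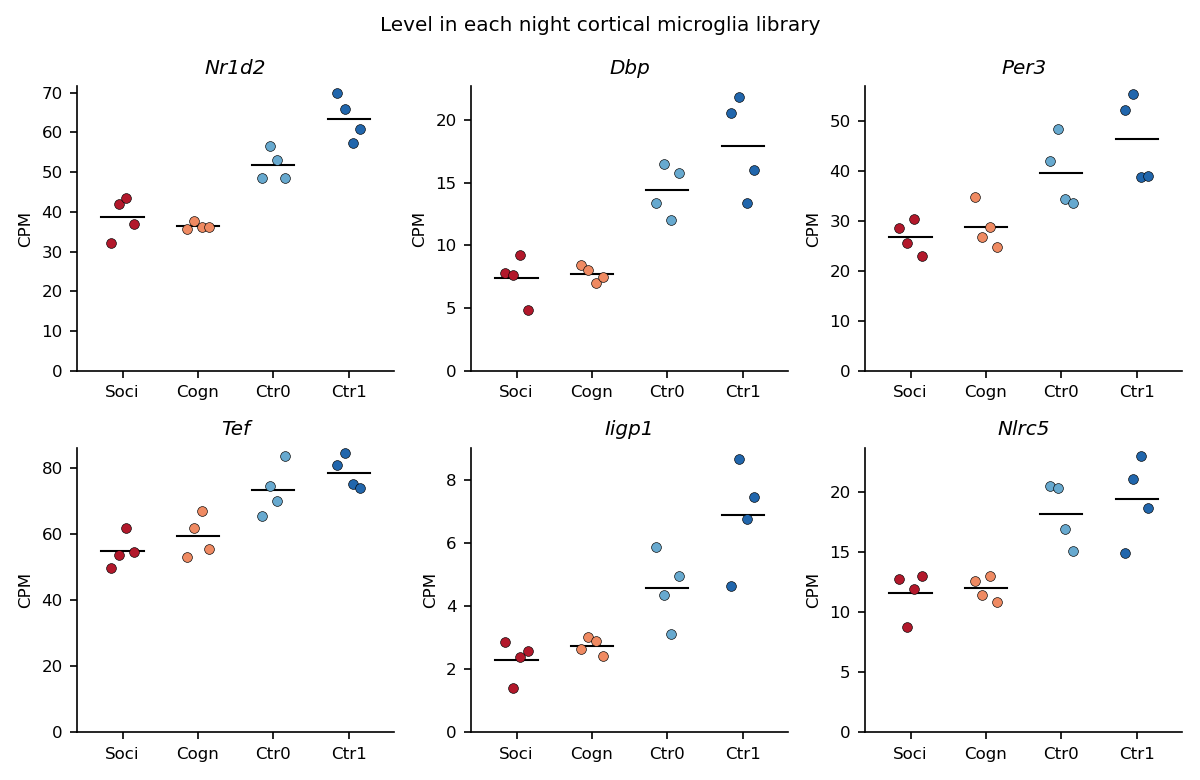
Level in CPM (vertical axis of each panel, from 0) of Nr1d2, Dbp, Per3, Tef, Iigp1 and Nlrc5 in each of the 16 night cortical libraries, by condition. Points are libraries and lines are the means of 4. For Nr1d2, Dbp, Iigp1 and Nlrc5 every Soci and Cogn point lies below every Ctr0 and Ctr1 point.

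Tef and Per3 came next in the order of p-values and stood just outside the threshold. Tef (chromosome 15, 81802421 to 81826863, plus strand) encodes a partner of DBP at D-boxes. Its level ran from 49.9 to 66.96 CPM in the 8 Soci and Cogn libraries (median 55.0) and from 65.4 to 84.5 CPM in the controls (median 74.8). Only Cogn replicate 3 and Ctr0 replicate 1 crossed. The log2 difference was -0.41 ± 0.07 (SE, edgeR adjusted p = 0.0524). Per3 (chromosome 4, 151003652 to 151044665, minus strand), a repressor of the loop, ran from 22.9 to 34.9 CPM (median 27.8) in Soci and Cogn and from 33.7 to 55.4 CPM (median 40.5) in the controls, with Cogn replicate 1 above 2 Ctr0 libraries. Its log2 difference was -0.62 ± 0.11 (SE, edgeR adjusted p = 0.0745). Of 10 other settings, 5 called Tef and 4 called Per3, among them DESeq2 (adjusted p = 2.48e-05 and 0.000200) and the fit of all 32 cortical libraries (edgeR adjusted p = 0.00478 and 0.0142).

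Among the other repressors, Nr1d1 ran from 5.94 to 17.5 CPM (median 8.9995) in Soci and Cogn and from 9.59 to 35.8 CPM (median 18.5) in the controls. The groups overlapped, and its log2 difference of -0.92 ± 0.25 did not pass (SE, edgeR adjusted p = 0.640). Ciart, a repressor of the activator complex, differed by -0.61 ± 0.30 and Bhlhe40 by -0.35 ± 0.20 (SE), neither past an unadjusted p of 0.05. Per1, Per2, Cry1 and Cry2 differed by 0.03 ± 0.25, -0.03 ± 0.18, 0.08 ± 0.14 and -0.04 ± 0.15 on the log2 scale (SE), and the sign of each changed when single libraries or replicate numbers were left out. On the side of the activators, Arntl differed by 0.23 ± 0.12, Npas2 by 0.43 ± 0.21 and Clock by -0.06 ± 0.06 (SE), and none passed an unadjusted p of 0.05. Arntl ran from 16.7 to 26.8 CPM in Soci and Cogn and from 14.6 to 24.3 CPM in the controls.

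Of the 18 core clock genes 17 were tested. Of these, 1 was called lower, beside 0.0251% of all genes, and 3 were lower and 1 higher at an unadjusted p under 0.05, beside 3.43% and 2.79% of all genes (the higher being Csnk1d, a kinase of the PER proteins, at 0.13 ± 0.06, SE), and the median log2 difference was -0.03 beside 0.02 over all genes. Rora, Bhlhe41 and Csnk1e lay between -0.15 and 0.12. Of the 4 D-box binding genes (Dbp, Tef, Hlf and Nfil3), 1 was called and 2 were lower at an unadjusted p under 0.05, with a median of -0.38. Hlf split the conditions: it ran from 12.7 to 14.03 CPM in Soci, from 17.0 to 26.9 CPM in Cogn and from 14.4 to 35.1 CPM in the controls. Its log2 difference was -0.67 ± 0.21 in Soci and -0.04 ± 0.21 in Cogn (SE), and the difference between Soci and Cogn did not pass (edgeR, adjusted p = 0.845). Nfil3, the repressor at D-boxes, differed by 0.15 ± 0.16 (SE).

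Nr1d2, Dbp, Tef and Per3 fell in the hippocampus at night, and no gene was called in the cortex by day. In night hippocampal microglia, Nr1d2 ran from 29.6 to 41.8 CPM in Soci and Cogn and from 44.5 to 64.5 CPM in the controls, and Dbp from 5.51 to 9.23 and from 10.5 to 20.9 CPM. Neither gene overlapped between the groups there. The 4 genes called in that comparison (0.0235% of 17015, all lower) were Nr1d2 at -0.63 ± 0.07, Dbp at -1.04 ± 0.13, Tef at -0.47 ± 0.06 and Per3 at -0.60 ± 0.10 (SE, edgeR adjusted p = 4.57e-05, 0.000126, 0.000161 and 0.00697). The labels do not say whether a hippocampal and a cortical library came from the same animal, so the regions are not independent evidence. The difference between the regions was called for 0 genes (edgeR, with 308 higher or 1.81% and 690 lower or 4.06% in the cortex at an unadjusted p under 0.05, and 0 by DESeq2), and for Nr1d2 it was -0.00060 ± 0.10 and for Dbp -0.07 ± 0.19 (SE).

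By day in the cortex, Nr1d2 ran from 41.9 to 66.3 CPM in Soci and Cogn and from 43.0 to 73.7 CPM in the controls, and Dbp from 9.99 to 12.1 CPM and from 7.72 to 13.9 CPM. Both overlapped fully, with log2 differences of 0.14 ± 0.09 and 0.05 ± 0.12 (SE). No gene of 16238 was called by day with edgeR (817 higher or 5.03% and 465 lower or 2.86% at an unadjusted p under 0.05). The test of the night difference minus the day difference called 4 genes (0.0246%), all more negative at night: Dbp by -1.14 ± 0.17, Nr1d2 by -0.74 ± 0.13, Iigp1 by -1.73 ± 0.29 and Gvin1 by -1.05 ± 0.18 (SE, edgeR adjusted p = 0.00276, 0.0183, 0.0154 and 0.0183). Gvin1, an interferon-inducible GTPase, was too low for the rule by which genes were named and is given because it was called. With library totals in place of TMM this test called 0 genes. For Tef and Per3 the change between night and day was -0.39 ± 0.09 and -0.49 ± 0.15 (SE) and did not pass (edgeR, adjusted p = 0.258 and 0.673).

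**Figure D2:**
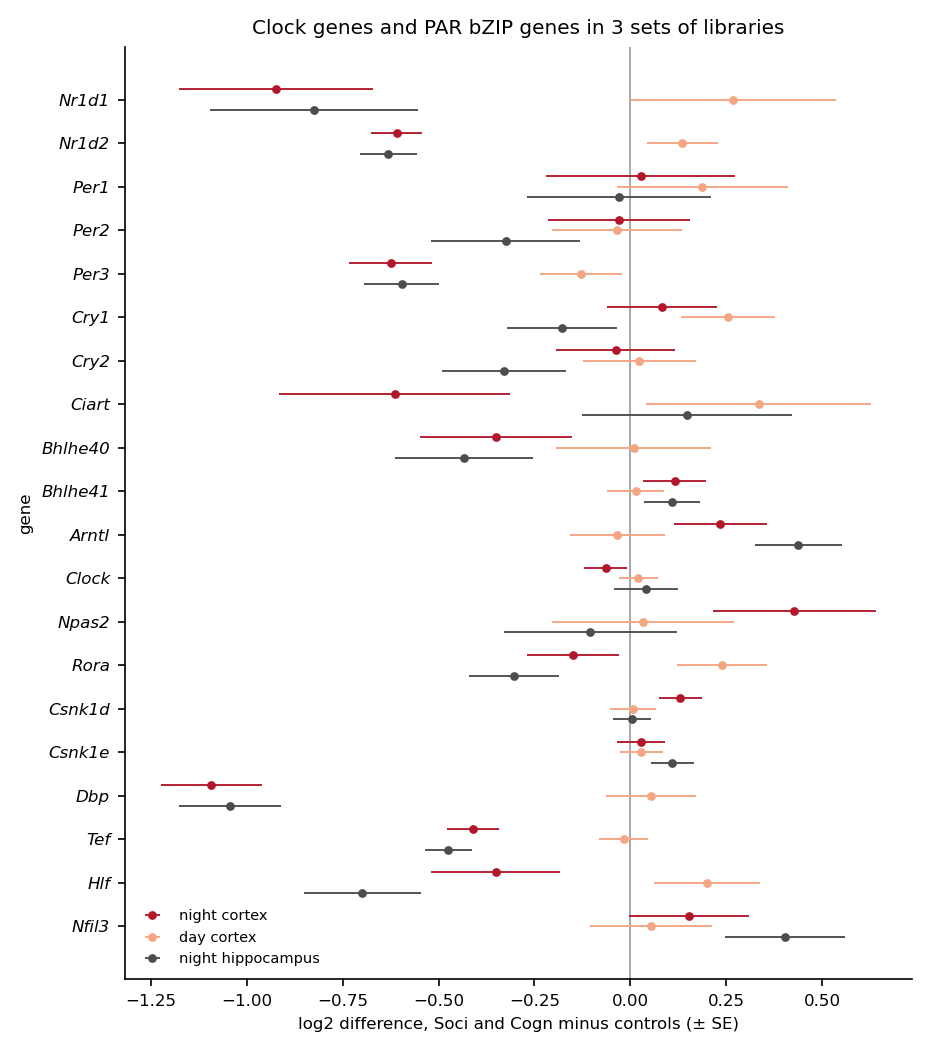
Log2 difference of Soci and Cogn against the controls (horizontal axis, points with SE bars) for 20 clock genes and D-box binding genes, in night cortex, day cortex and night hippocampus. Nr1d2, Dbp, Tef and Per3 lie to the left of 0 in both night settings and near 0 by day.

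The second set of genes belonged to the interferon response. Iigp1 (ENSMUSG00000054072, chromosome 18), an interferon-inducible GTPase that attacks vacuoles of intracellular pathogens, had 2.87, 1.40, 2.38 and 2.59 CPM in Soci and 2.65, 3.03, 2.88 and 2.42 CPM in Cogn. The Ctr0 libraries had 5.88, 4.36, 3.13 and 4.97 CPM and the Ctr1 libraries 4.63, 8.67, 6.78 and 7.45 CPM. The groups did not overlap, although Cogn replicate 2 and Ctr0 replicate 3 were close. Iigp1 fell by 1.16 ± 0.17 on the log2 scale (SE, edgeR adjusted p = 0.0283). The log2 difference was -1.29 ± 0.22 in Soci and -1.02 ± 0.22 in Cogn (SE), and neither passed alone (edgeR, adjusted p = 0.134 and 0.827). The call was kept in 4 of the 16 fits without 1 library, with the largest adjusted p of 0.102 without Ctr1 replicate 2 (edgeR), while the log2 difference in these fits stayed between -1.23 and -1.06.

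Nlrc5 (ENSMUSG00000074151, chromosome 8, 94434356 to 94527272, plus strand) encodes the activator of MHC class I genes. It had 12.7, 8.78, 11.9 and 12.99 CPM in Soci and 12.5, 11.4, 13.03 and 10.8 CPM in Cogn. In the controls it had 20.5, 20.3, 16.9 and 15.1 CPM in Ctr0 and 14.9, 21.1, 22.9 and 18.6 CPM in Ctr1. The groups did not overlap. Nlrc5 fell by 0.67 ± 0.11 on the log2 scale (SE, edgeR adjusted p = 0.0445), with -0.70 ± 0.13 in Soci and -0.65 ± 0.14 in Cogn (SE, edgeR adjusted p = 0.292 and 0.753). The call was kept in 2 of the 16 fits without 1 library, and the largest adjusted p was 0.194 without Ctr0 replicate 2 (edgeR), with log2 differences between -0.73 and -0.62. Without Soci libraries 2 and 4, neither gene was called (edgeR, adjusted p = 0.185 for both). Of 10 other settings, these libraries left out being 1, 8 called Iigp1 and 6 called Nlrc5. Nlrc5 was not called in the fit of all 32 cortical libraries (edgeR, adjusted p = 0.362) or with library totals alone (edgeR, adjusted p = 0.349).

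After Tef and Per3, the lower genes of lowest p were Samd9l, Uvssa, Axl and Rnf213. Samd9l, an antiviral factor, ran from 7.75 to 13.2 CPM (median 10.5) in Soci and Cogn and from 11.0 to 30.6 CPM (median 16.6) in the controls. Its log2 difference was -0.76 ± 0.16 (SE, edgeR adjusted p = 0.346). Rnf213, an interferon-responsive ubiquitin ligase, differed by -0.29 ± 0.07 (SE, edgeR adjusted p = 0.445) and the phagocytic receptor Axl by -0.64 ± 0.15 (SE, edgeR adjusted p = 0.419). Axl had 19.8, 12.7, 20.6 and 12.1 CPM in Soci, 22.5, 21.4, 22.2 and 26.0 CPM in Cogn and 19.96 to 41.4 CPM in the controls. Its lowest values were those of Soci replicates 2 and 4. The transcription-coupled repair gene Uvssa, which is no interferon gene, differed by -0.26 ± 0.06 (SE, edgeR adjusted p = 0.419). DESeq2 called Samd9l (adjusted p = 0.0202) and Uvssa, Axl and Rnf213 (adjusted p = 0.0383 each).

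Of 26 interferon-stimulated genes, all tested, 17 were lower and 0 higher at an unadjusted p under 0.05, beside 3.43% and 2.79% of all genes. None passed adjustment over all genes. Of the 26, 24 were negative, and the median log2 difference was -0.49, with -0.51 in Soci and -0.43 in Cogn. The member of lowest p was Oasl2, a sensor-related antiviral protein, which had 5.95 to 10.3 CPM in Soci and Cogn and 7.73 to 18.1 CPM in the controls and differed by -0.58 ± 0.14 (SE, edgeR adjusted p = 0.494). Other members, chosen as examples after their values were seen, were Ifit3 at -0.64 ± 0.17, Mx1 at -0.49 ± 0.14, Zbp1 at -0.85 ± 0.24 and the transcription factor Irf7 at -0.52 ± 0.16 (SE). Irf9 and Bst2 were positive, at 0.02 ± 0.06 and 0.12 ± 0.11 (SE). Ifit3 and Ifit3b are near-identical copies whose reads may have been split, and the lists were chosen with earlier results of these data known.

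The summed level of these 26 genes ran from 187 to 222 CPM in Soci and Cogn (median 200.1) and from 216 to 294 CPM in the controls (median 243). Ctr1 was the higher of the control conditions, with a median of 265 CPM against 227 CPM in Ctr0. By day the list had a median log2 difference of 0.26, with 5 genes higher and 0 lower at an unadjusted p under 0.05. Of all genes, 5.03% were higher and 2.86% lower by day. For 17 of the 26 the night difference was lower than the day difference at that level, beside 3.4% of all genes lower and 1.41% higher. The same held for 10 of the 19 MHC genes, 7 of 13 border macrophage markers, 7 of 7 genes of the mitochondrial genome and 5 of 5 haemoglobin genes, whose part in the interferon result was not tested. In the night hippocampus the median was -0.23, with 10 lower and 0 higher, beside 3.06% and 4.15% of all genes. Iigp1 itself differed by 0.58 ± 0.21 by day and by -0.57 ± 0.19 in the night hippocampus, and Nlrc5 by 0.38 ± 0.18 and -0.10 ± 0.12 (SE), and none of these passed (edgeR, smallest adjusted p = 0.595).

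**Figure D3:**
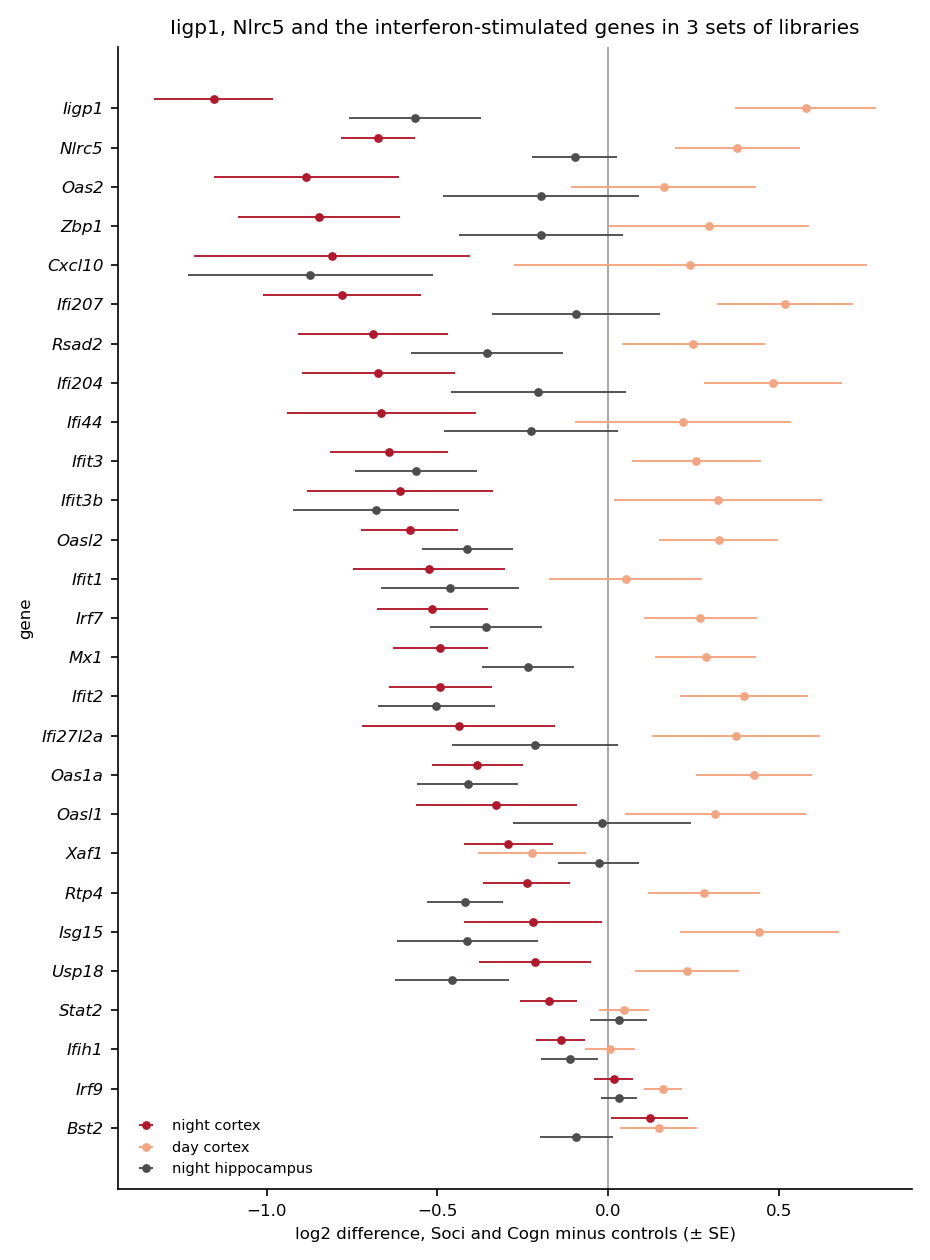
Log2 difference of Soci and Cogn against the controls (horizontal axis, points with SE bars) for Iigp1, Nlrc5 and 25 of the 26 interferon-stimulated genes, in night cortex, day cortex and night hippocampus. In night cortex 23 of the 25 lie to the left of 0, and the median over the 26 is -0.49 at night and 0.26 by day.

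Of 19 MHC genes, 1 was called (Nlrc5), beside 0.0251% of all genes, 7 were lower and 0 higher at an unadjusted p under 0.05, beside 3.43% and 2.79%, and the median was -0.12. The lower members were Nlrc5, the class II activator Ciita, the class II chains H2-Aa, H2-Ab1 and H2-Eb1 with their chaperone Cd74, and the class I gene H2-Q4, whose reads may be shared with related class I genes. Ciita ran from 2.30 to 5.73 CPM in Soci and Cogn and from 4.23 to 12.4 CPM in the controls, and differed by -1.02 ± 0.24 on the log2 scale (SE, edgeR adjusted p = 0.486). H2-Ab1 differed by -0.76 ± 0.26 (SE), with 15.5 to 57.1 CPM in Soci and Cogn, and Cogn replicate 4 was above most controls. The classical class I genes H2-K1 and H2-D1 differed by -0.14 ± 0.10 and -0.13 ± 0.11 (SE), and the proteasome subunits Psmb8 and Psmb9 by 0.14 ± 0.10 and 0.12 ± 0.08 (SE).

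Among the markers of other cells, those of border macrophages and vessels were mostly negative. The 5 haemoglobin genes were all negative, with the lowest median of these lists, at -0.69. Lymphocyte, oligodendrocyte lineage and astrocyte markers had medians of -0.08, -0.06 and -0.03. Neuron markers had a median of 0.13, choroid plexus and ependymal markers one of 0.06, and neutrophil and monocyte markers one of 0.0070. Of 13 border macrophage markers, 3 were lower and 0 higher at an unadjusted p under 0.05, beside 3.43% and 2.79% of all genes, 11 were negative and the median was -0.33. Ms4a7 differed by -0.76 ± 0.19, Mrc1 by -0.39 ± 0.17 and Siglec1, itself interferon-responsive, by -0.64 ± 0.24 (SE). The summed level of the 13, mostly that of Stab1 and Maf, ran from 1196 to 1736 CPM in Soci and Cogn and from 1313 to 1730 CPM in the controls. Of 15 endothelial and mural markers, 15 were negative and 2 passed an unadjusted p of 0.05, with a median of -0.52. Their sums ran from 438 to 1166 CPM in Soci and Cogn and from 286 to 2492 CPM in the controls. The median log2 difference was -0.79 in Soci and -0.23 in Cogn, and -0.95 for Ctr0 against Ctr1. The median sum was 596 CPM in Soci, 936 CPM in Cogn, 896 CPM in Ctr0 and 1500 CPM in Ctr1. None of the border macrophage or vessel markers was at 0 in any library, and their part in the interferon and MHC results was not tested. In bulk samples, fewer cells of a type and less RNA per cell cannot be told apart.

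**Figure D4:**
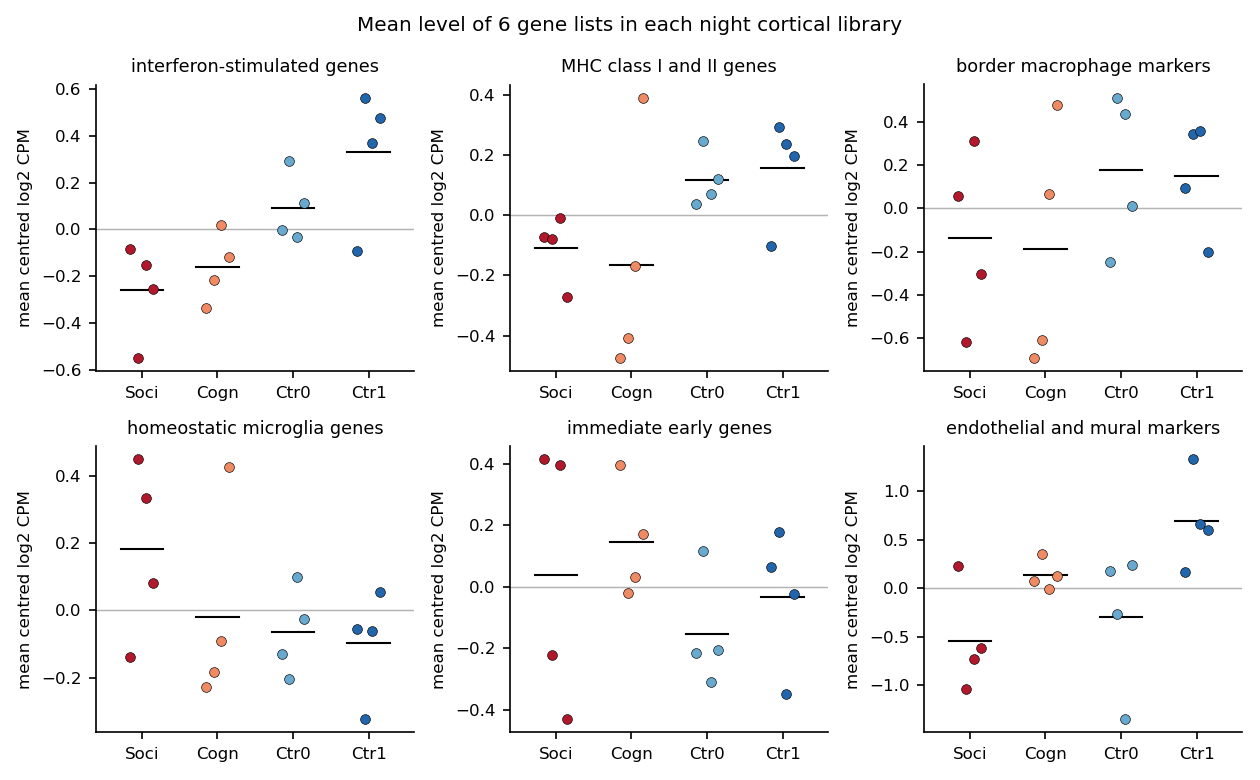
Mean over the genes of a list of log2 CPM centred on the 16 libraries (vertical axis, log2 units), per library and by condition, for interferon-stimulated genes, MHC genes, border macrophage markers, homeostatic microglia genes, immediate early genes and endothelial and mural markers. The interferon list runs from -0.55 to 0.02 in Soci and Cogn and from -0.09 to 0.56 in the controls, and the border macrophage and vessel lists overlap more widely.

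Of the genes of microglial state, the 22 homeostatic genes were all positive in the pooled comparison, with a median of 0.18. The median was 0.297 in Soci and 0.0981 in Cogn. Their summed level had a median of 27140 CPM in Soci, 20956.5 CPM in Cogn and 22126.9 CPM in the controls. The Cogn median thus lay below that of the controls, although the Cogn libraries reached 32536.4 CPM. In the pooled comparison 5 of the 22 were higher and 0 lower at an unadjusted p under 0.05, beside 2.79% and 3.43% of all genes. These 5 were the complement genes C1qa, C1qb and C1qc at 0.32 ± 0.13, 0.34 ± 0.14 and 0.29 ± 0.12, with Olfml3 and Selplg (SE). C1qa ran from 610 to 1180 CPM in Soci and Cogn and from 587 to 749 CPM in the controls, and the upper values came from Soci replicates 2 and 3 and Cogn replicate 4. Of 22 genes raised in disease-associated microglia, 5 were lower at that level (Axl, Itgax, Clec7a, Spp1 and Igf1) and 1 higher (the protease Ctsd), with a median of -0.09. Spp1 (osteopontin) ran from 0.517 to 1.77 CPM in Soci and Cogn and from 1.08 to 11.3 CPM in the controls, with 11.3 CPM in Ctr0 replicate 2 and 6.18 CPM in Ctr1 replicate 3 above the rest. Its log2 difference was -1.71 ± 0.48 (SE, edgeR adjusted p = 0.649).

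No gene was called higher by edgeR, in the pooled comparison or in Soci or Cogn apart, and DESeq2 called Rnf166 and Sdf2l1 in the pooled comparison. The higher gene of lowest p was Rnf166, a ubiquitin ligase, with 28.1 to 30.3 CPM in Soci and Cogn and 23.01 to 27.4 CPM in the controls. The groups did not overlap, and the log2 difference was 0.23 ± 0.05 (SE, edgeR adjusted p = 0.346). Timm50, a subunit of the mitochondrial protein import complex, ran from 10.3 to 13.03 CPM and from 8.34 to 10.02 CPM, without overlap, at 0.30 ± 0.07 (SE, edgeR adjusted p = 0.494). Ctdnep1, a phosphatase of the nuclear envelope, was the third gene without overlap, at 0.24 ± 0.06 (SE, edgeR adjusted p = 0.535).

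Sdf2l1, a chaperone cofactor, ran from 12.01 to 21.4 CPM in Soci and Cogn and from 9.49 to 12.97 CPM in the controls, at 0.48 ± 0.11 (SE, edgeR adjusted p = 0.416). The stress-induced factor Manf differed by 0.42 ± 0.11 and the calcium-binding chaperone Calr by 0.35 ± 0.09 (SE, edgeR adjusted p = 0.547 and 0.5995). For these 3 genes the difference was 0.60, 0.51 and 0.42 in Soci and 0.36, 0.34 and 0.28 in Cogn. The other 4 of the 10 were the metal-responsive factor Mtf1 at 0.20 ± 0.05, the NEDD8-conjugating enzyme Ube2m at 0.22 ± 0.06, the lysosomal thioesterase Ppt2 at 0.37 ± 0.10 and Dalrd3 at 0.23 ± 0.06 (SE).

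Soci and Cogn were compared directly, and 0 genes were called (edgeR, with 271 higher or 1.7% and 566 lower or 3.55% in Soci at an unadjusted p under 0.05, and 6 by DESeq2). The lowest p-values were those of haemoglobin genes. Hba-a1 had 7.52, 6.71, 4.50 and 4.54 CPM in Soci and 18.6, 31.3, 31.1 and 62.1 CPM in Cogn, without overlap, and 8.15 to 85.8 CPM in the controls. The log2 difference was -2.60 ± 0.52 for Hba-a1 and -2.69 ± 0.56 for Hbb-bs (SE, edgeR adjusted p = 0.796 for both), and reads of near-identical globin copies may have been split. Without Ctr1 replicate 1, 5 genes were called between Soci and Cogn, namely 4 globin genes and Alas2, the enzyme that starts haem synthesis in red cells. For the genes called against the controls the difference between Soci and Cogn was 0.08 ± 0.10 for Nr1d2, -0.08 ± 0.19 for Dbp, -0.27 ± 0.26 for Iigp1 and -0.04 ± 0.15 for Nlrc5 (SE). On the higher side Pigl differed by 0.57 ± 0.13 and Mthfd2 by 0.51 ± 0.15 (SE, edgeR adjusted p = 0.845 for both). Apart from genes already named, the Soci comparison was led on the higher side by Trmt61a at 0.41 ± 0.10 and Tmed5 at 0.38 ± 0.10, and that of Cogn by Znhit2 at 0.53 ± 0.14 (SE).

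The control conditions did not differ in any called gene (edgeR, with 237 higher or 1.48% and 789 lower or 4.94% in Ctr0 at an unadjusted p under 0.05, and 12 by DESeq2, among them choroid plexus genes such as Folr1 and Kcnj13). The clotting factor F5 had 5.30, 4.06, 1.34 and 3.78 CPM in Ctr0 and 12.6, 10.2, 11.5 and 16.7 CPM in Ctr1, at -1.82 ± 0.33 on the log2 scale (SE, edgeR adjusted p = 0.396). Ace, the angiotensin-converting enzyme, differed by -1.05 ± 0.20 (SE, edgeR adjusted p = 0.396). On the higher side the synaptic vesicle gene Sv2a differed by 0.34 ± 0.10 (SE, edgeR adjusted p = 0.649). Gm25911, annotated as a microRNA gene, differed by 6.46 ± 1.31 (SE, edgeR adjusted p = 0.396), with 160 and 289 CPM in Ctr0 replicates 2 and 4 and at most 7.87 CPM elsewhere. Iigp1 and Dbp were also lower in Ctr0 than in Ctr1, by -0.60 ± 0.23 and -0.32 ± 0.18 (SE), so that Ctr0 lay between Ctr1 and the Soci and Cogn libraries for these genes and for Nr1d2, and neither passed (edgeR, adjusted p = 0.699 and 0.901).

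The study followed the circular RNA Cdr1as, which is made from the Cdr1 locus, through reads that span its circular junction. By that measure the study placed it among the highest circular RNAs of microglia. In the suprachiasmatic nucleus the study also took the whole read coverage of the Cdr1 locus as coming from the circular RNA. The gene counts used here do not hold junction reads apart, and their strand setting is not given. It is therefore not known which gene of the locus reads of Cdr1as would count for, and low counts of Cdr1 do not show that Cdr1as was scarce. Cdr1 had 11 counts in the 8 Soci and Cogn libraries, of which 7 were in Cogn replicate 2, and 6 counts in the 8 controls, and was too low to be tested. C230004F18Rik, which overlaps Cdr1 on the other strand, had 98 and 69 counts and differed by 0.58 ± 0.36 (SE, edgeR adjusted p = 0.756). The long RNA Cyrano, listed as 1700020I14Rik, ran from 118 to 151 CPM in Soci and Cogn and from 128 to 166 CPM in the controls, at -0.12 ± 0.08 (SE, edgeR adjusted p = 0.763).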

How the data were processed

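CD11b-sorted microglia were profiled in 64 libraries, of which the 16 night cortical ones were compared here. The deposited values are raw read counts per gene, which the authors made with STAR 2.7.3a and featureCounts of Subread 2.0.0 on GRCm38.p5, and the strand and multi-mapping settings are not given in the sources used here. Of 49671 genes, 49412 were matched to GENCODE M21 for symbols and positions. No column of the table lay outside the samples of the series.

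Genes with enough counts in the 16 libraries (filterByExpr) were scaled by TMM. They were tested with the quasi-likelihood test of edgeR 4.0.16 in R 4.3.3, with 1 coefficient per condition. The threshold was 0.05 on the Benjamini-Hochberg adjusted p. A prior count of 2 entered only the log2 CPM used for list means and for correlations between libraries. Day and hippocampal libraries entered separate fits of 32 libraries with region or phase terms. The p-values of lists are the unadjusted ones of that fit. DESeq2 1.42.0 and the other alternatives are described at the end. The scripts were tested on simulated data. Library measures were compared by an exact permutation test.

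Genes named were the 10 of lowest p in each direction whose mean level was 2 or more in log2 CPM. The number was 3 for Soci and Cogn apart and 2 for Soci against Cogn and for Ctr0 against Ctr1. For the changes between night and day and between regions, only called genes and genes named elsewhere are given. The member of lowest p in each list described at length was also named. The clock genes, the D-box binding genes, Cdr1, C230004F18Rik and 1700020I14Rik were named in any case. The set of libraries and the gene lists were chosen with earlier results of these data known. A few members of the lists are not reported here. Other genes named from the lists were chosen after their values were seen. All replicates were distinct libraries (smallest chi-square per degree of freedom between pairs of one condition, 16.6).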

Additional observations from a re-analysis of the deposited data

Results flagged for a closer look

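For 4 genes the difference between Soci and Cogn and the controls changed from night to day in the cortex, by the test of that change itself (edgeR, adjusted over 16238 genes). The night difference minus the day difference was -1.14 for Dbp, -1.73 for Iigp1, -1.05 for Gvin1 and -0.74 for Nr1d2. Gvin1 ran from 1.501 to 3.03 CPM in Soci and Cogn and from 2.08 to 4.88 CPM in the controls at night, and from 3.54 to 5.17 CPM and from 2.04 to 3.86 CPM by day. Its signs were opposite at night and by day, with -0.51 ± 0.14 and 0.54 ± 0.13 on the log2 scale (SE), and neither passed alone (edgeR, adjusted p = 0.637 and 0.595).

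Single libraries that stood apart from the other 3 of their condition were looked for in 144 groups of 4 (16 library measures and 20 named genes), and 12 were found, where chance alone gives about 1 in 20. Ctr0 replicate 2 had 26.3 M counts and 23028 genes with a count, against 13.4 to 15.3 M and 21195 to 21457 in the others. Soci replicate 4 held 23.9% of its counts in Gm26917, a locus with ribosomal RNA reads, against 32.3 to 32.6%. Cogn replicate 2 held 6.13% in the mitochondrial ribosomal gene mt-Rnr2 against 3.92 to 4.07%. Cogn replicate 4 had a lymphocyte marker sum of 152 CPM against 114 to 118 CPM. Ighm had by far the highest median of the markers in this sum, at 134 CPM.

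Of the named genes, Rnf166 stood apart in Soci replicate 2 (30.3 CPM), Cogn replicate 4 (29.9 CPM) and Ctr1 replicate 2 (23.01 CPM), and Calr in Cogn replicate 4 (418 CPM) and Ctr0 replicate 2 (233 CPM). Ppt2 did so in Ctr1 replicate 2 (7.33 CPM) and Uvssa in Cogn replicate 2 (34.8 CPM). None of these values belonged to Nr1d2, Dbp, Iigp1 or Nlrc5.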

How the results depend on the processing

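Nr1d2 and Dbp were called lower in the pooled comparison under every planned setting and without any single library. DESeq2 called 23 genes (2 higher, 21 lower) in the pooled comparison, 13 in Soci, 4 in Cogn, 6 between Soci and Cogn, 12 between Ctr0 and Ctr1 and 19 for the change between night and day. With library totals alone, which moved the median log2 difference of all genes to 0.07 in the pooled comparison and 0.13 in Soci, 1 gene was called in Soci and 0 for the change between night and day, and the list medians were -0.17 for genes of the mitochondrial genome and 0.05 for astrocyte markers. Without a count filter 1 gene was called in Soci and 2 in Cogn, and without the loci with ribosomal RNA reads 0 in Soci. Without Soci libraries 2 and 4, chosen after seeing the data, 2 genes were called in the pooled comparison, 0 in Soci and 2 in Cogn. Signs turned for Per2 (0.0130) and Cry2 (0.0133) with library totals alone, and for Per2 (0.149), Cry2 (0.125) and Csnk1e (-0.0524) without Soci libraries 2 and 4. The causes were not tested.

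The labels give the replicate numbers no meaning, although the library codes in them run in order through the conditions within each number. Of 24 correlations between libraries of 1 number, 11 were over 0.1, so the numbers were not taken as pairs. The median correlation was 0.0147 within a number and -0.0769 between numbers, and 8 of 16 libraries correlated best with their own number, which is a hint from the data that numbers share something. With the replicate block 3 genes were called in the pooled comparison (Dbp, Nr1d2 and Per3, without Iigp1 and Nlrc5 at edgeR adjusted p = 0.103 and 0.131), 0 in Soci (Nr1d2 and Dbp at 0.0679), 1 in Cogn and 4 for the change between night and day.

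Leaving out single libraries or replicate numbers, the latter chosen after seeing the data, gave 0 to 5 genes in the pooled comparison, 0 to 2 in Soci, 0 to 2 in Cogn, 0 to 5 between Soci and Cogn and 0 to 0 between Ctr0 and Ctr1. Leaving out single libraries gave 4 to 8 for the change between night and day and 0 to 0 for that between regions. Over single libraries and numbers, the log2 difference ran from -0.13 to 0.24 for Per1, -0.170 to 0.188 for Per2, -0.0482 to 0.175 for Cry1, -0.23 to 0.12 for Cry2, -0.259 to 0.00853 for Rora and -0.0368 to 0.0867 for Csnk1e. Differences of library measures without single libraries ran from -1.58 to 0.744 M total counts, -249.3 to 99.3 genes with a count, and in summed CPM from -59.9 to 17.2 for border macrophages, -155 to 282 for astrocytes, -33.2 to 13.2 for the oligodendrocyte lineage and -57.0 to 19.8 for haemoglobin. With 4 libraries per condition, genes under the count filter, such as Cdr1, could not be assessed.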

Other observations

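Of 24 immediate early genes, which neurons and glia switch on within minutes of stimulation, 7 were higher and 0 lower in Soci and Cogn at an unadjusted p under 0.05, beside 2.79% and 3.43% of all genes, with a median log2 difference of 0.20. The member of lowest p was Arc, a synaptic gene, which had 8.39 to 38.6 CPM in Soci and Cogn and 4.02 to 17.9 CPM in the controls and differed by 0.86 ± 0.31 (SE, edgeR adjusted p = 0.751). Nr4a1 differed by 0.69 ± 0.25 (SE). None passed adjustment over all genes. Of 20 genes induced by tissue dissociation, 2 were higher and 0 lower. That list shares members such as Fos, Jun and Egr1 with the immediate early genes, so the counts are not separate. Of 18 neuronal markers tested, 0 were higher and 1 lower (Sst). The part of neuronal RNA or of dissociation in the immediate early genes was not tested.

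Of 15 cell cycle genes tested, 3 were lower and 0 higher at an unadjusted p under 0.05, beside 3.43% and 2.79% of all genes, and 13 were negative, led by Cenpf at -0.60 ± 0.15 (SE, edgeR adjusted p = 0.535). Of 18 cytokine genes tested and of 15 glucocorticoid-responsive genes, 0 were higher and 0 lower at that level, with medians of 0.06 and 0.08. Glycolysis, the respiratory chain, ribosomal proteins and NRF2 targets had medians of 0.07, 0.06, 0.04 and 0.04, also with 0 and 0. Of 27 Toll-like receptor and NF-kB genes 1 was lower (Tlr8 at -0.59), and of 27 lysosomal genes 3 were lower and 1 higher.

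The median log2 differences of Soci and Cogn from the controls had opposite signs in many lists. They lay furthest apart for haemoglobin genes, at -1.99 in Soci and 0.62 in Cogn, followed by astrocyte markers at -0.60 and 0.44, loci with ribosomal RNA reads at -0.72 and 0.31, and glucocorticoid-responsive genes at -0.29 and 0.36.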
